A study of Mus musculus with 12 samples.

Results

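Integrins and laminins are the receptors and the ligands of cell attachment to the basement membrane. The mouse genes studied here are the 26 integrin subunit genes (18 alpha and 8 beta) and the 11 laminin chain genes (5 alpha, 3 beta and 3 gamma), found by matching gene symbols. They make up 37 of the 24054 genes counted, and all 37 had enough reads to be tested among 14860 genes. The BTPRZ-T group is tumour of the genotype BrafV600E;Tgfbr2-/-;Rnf43-/-/Znrf3-/-;p16 Ink4a-/-, the BT-T group is tumour of the genotype BrafV600E;Tgfbr2-/-, and the N group is normal wild-type colon. BrafV600E is an activated kinase, Tgfbr2 a TGF-beta receptor, Rnf43 and Znrf3 a pair of enzymes that mark WNT receptors for removal, and p16 Ink4a a cell cycle inhibitor. Tumours grew from edited colonic organoids, and the libraries of whole tissue therefore hold host cells as well. Every library carries the strain label NSG, an immunodeficient mouse that lacks T, B and NK cells and keeps macrophages and neutrophils. Each group has 4 libraries, and the labels do not say whether these came from separate animals, so the p-values measure the spread between libraries, which may be technical. They do not say whether a genotype is 1 organoid line or several.

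An integrin is a pair of 1 alpha and 1 beta subunit, and the pair decides which matrix protein or cell surface ligand is bound. A laminin is a trimer of an alpha, a beta and a gamma chain. In gut epithelium, laminin-332 (with the chains Lama3 and Lamb3) and laminins with Lama5 lie under the cells and are bound by the pairs of Itga6 with Itgb4 and of Itga3 with Itgb1. Beta 2 integrins are receptors of leukocytes, and the pairs of Itgav with Itgb6 or Itgb8 release active TGF-beta from its latent complex.

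Libraries held 15732004 to 26052772 gene reads, and levels are CPM (counts of a gene relative to the library total, after TMM scaling). Colon epithelium markers (8 genes) summed to 7463.7 to 16915 CPM in BTPRZ-T, 8689.2 to 10429 CPM in BT-T, against 10886 to 12824 CPM in N, so the epithelium was present in every library. The 3 libraries with the fewest detected genes were BTPRZ-T replicates 1 and 4 and N replicate 2, with 14697, 13450 and 14175 genes against 16131 to 17266 in the others. Across genes, level changed with the length of the transcript by -0.472 to 0.0654 log2 units per doubling in BTPRZ-T, 0.0432 to 0.281 in BT-T, and 0.182 to 0.286 in N except N replicate 2, at -0.787. The members are long, with a median longest transcript of 5222 bases against 3373.5 over the genes tested, and 6046 for the laminin chains. Of the 37 members, 25 had their lowest N level in N replicate 2, and results are therefore also given without it or with the length trend removed.

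More members rose than fell in either tumour group. In BTPRZ-T against N, 6 members rose and 2 fell (edgeR quasi-likelihood test, Benjamini-Hochberg adjusted p under 0.05 over all genes). That is 21.6% of members, beside 11.8% of all genes tested (5.66% of all genes rose and 6.18% fell). In BT-T against N, 10 members rose and none fell, 27.0% of members beside 8.57% of all genes (5.67% of all genes rose and 2.90% fell). At unadjusted p under 0.05 there were 15 members in BTPRZ-T (25.5% of all genes) and 23 in BT-T (24.1% of all genes). All BTPRZ-T libraries lay above all N libraries in 7 members (6.88% of all genes) and below them in 1 (7.64%). All BT-T libraries lay above all N libraries in 21 members (13.4% of all genes) and below them in none (9.02%). The median log2 fold change of the 37 members was 0.30 in BTPRZ-T and 1.23 in BT-T, against -0.10 over all genes in each. Both comparisons use the same N libraries. With the length trend removed, the medians were 0.68 in BTPRZ-T, where the median of all genes was -0.01, and 1.00 in BT-T, where that of all genes was -0.29. In that fit 12 members rose and 1 fell in BTPRZ-T (35.1%, beside 16.2% of all genes), and 13 rose and 1 fell in BT-T (37.8%, beside 15.0% of all genes). Without N replicate 2 the medians were 0.05 and 0.92, beside 0.01 and -0.03 over all genes. In BTPRZ-T 7 members rose and 6 fell in that fit, 35.1% of members beside 32.3% of all genes, so their share was then close to that of all genes, whereas in BT-T 12 rose and none fell (32.4%, beside 13.5% of all genes).

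**Figure D1:**
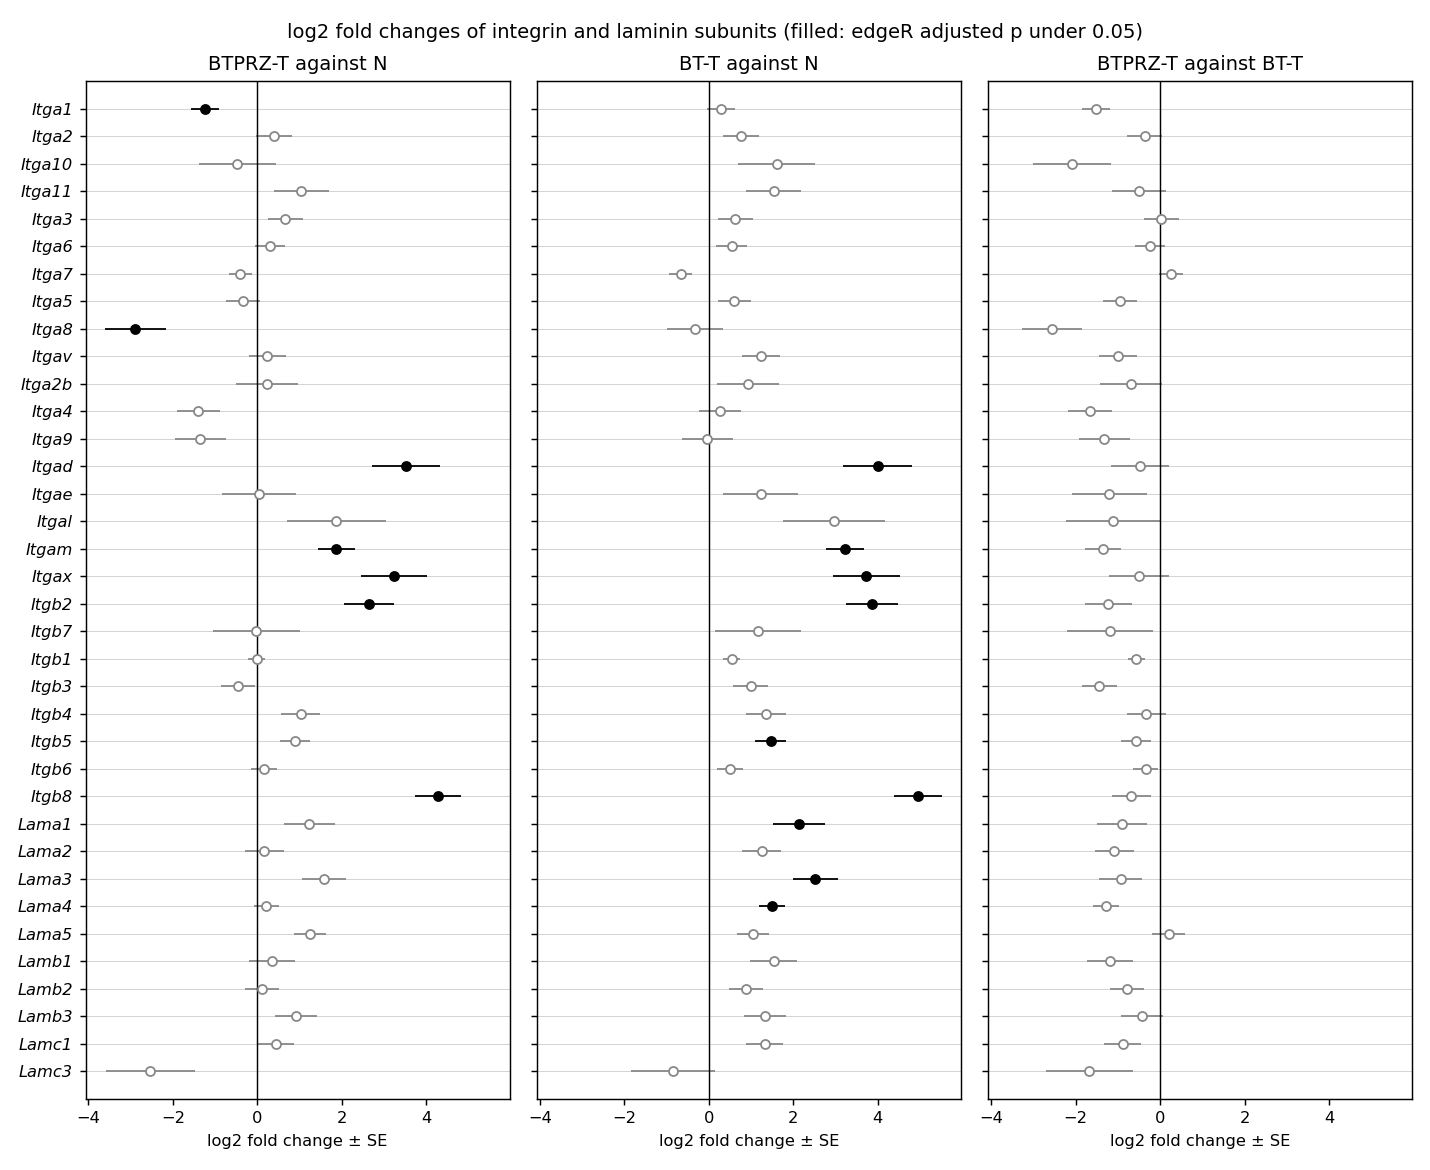
log2 fold change (x axis, bars are SE) of 36 of the 37 integrin and laminin subunits (rows) in the 3 comparisons, with filled points for edgeR adjusted p under 0.05. Of the filled points, 5 lie right and 2 left of 0 in BTPRZ-T against N, 9 lie right in BT-T against N, and there are none in BTPRZ-T against BT-T, where 33 of 36 points lie left of 0 (27 of 36 with the length trend removed).

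The largest rise in both tumour groups was that of Itgb8, the beta subunit that pairs with Itgav to release active TGF-beta (chromosome 12, 119158022 to 119238802, minus strand, GRCm38). Itgb8 stood at 10.1, 10.3, 32.4 and 8.55 CPM in BTPRZ-T replicates 1 to 4, at 24.4, 14.8, 36.9 and 22.3 CPM in BT-T, and at 0.403, 0.677, 1.12 and 0.945 CPM in N. Every tumour library lay above every N library, and BTPRZ-T replicate 3 stood apart from the rest of its group. Against N, the log2 fold change came to 4.28 ± 0.55 in BTPRZ-T (edgeR adjusted p = 0.000684) and 4.96 ± 0.56 in BT-T (adjusted p = 0.000498), from 1156 reads in BTPRZ-T, 2331 in BT-T and 50 in N. Per length, Itgb8 was a minor beta subunit. Its share of the CPM per kb of all 8 beta subunits was 0.584 ± 0.383% in BTPRZ-T, 0.671 ± 0.248% in BT-T and 0.0398 ± 0.0144% in N (SD, n = 4 each). Itgb1, the most abundant, held 51.0 ± 8.48%, 51.5 ± 4.29% and 66.9 ± 13.7%. Its share was 86.3% in N replicate 2, and without that library its N share was 60.5 ± 5.61%.

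The promoter of Itgb8, as the 250 bases before and 50 after its RefSeq start (GRCm38.p6, chr12:119238227-119238526, minus strand), is shown because its gene had the largest change. This window lies wholly inside the GENCODE span of the gene given above, so RefSeq and GENCODE place the start of Itgb8 differently. It held neither of the motifs searched, GAGGAA (the core bound by the leukocyte factor PU.1) and TGANTCA (the AP-1 site), on either strand, and its letters read as follows.
Itgb8: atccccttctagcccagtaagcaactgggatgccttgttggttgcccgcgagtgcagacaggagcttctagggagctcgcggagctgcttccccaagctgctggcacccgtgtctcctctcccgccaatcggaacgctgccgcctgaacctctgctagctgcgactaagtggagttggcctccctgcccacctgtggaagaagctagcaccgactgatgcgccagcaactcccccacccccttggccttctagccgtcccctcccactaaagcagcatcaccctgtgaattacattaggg

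Of the other subunits of receptors for RGD sequences in fibronectin, vitronectin and latent TGF-beta, Itgb5 rose in BT-T and Itga8, described further on, fell in BTPRZ-T. Itgb5, a partner of Itgav, stood at 78.8, 108, 94.8 and 171 CPM in BTPRZ-T, 147, 171, 179 and 178 CPM in BT-T and 73.2, 22.7, 83.0 and 65.7 CPM in N. All 4 BT-T libraries lay above all N libraries, while BTPRZ-T overlapped N. Itgb5 rose by 1.47 ± 0.36 in BT-T on the log2 scale (edgeR adjusted p = 0.0263) and lost that call without any of BT-T replicates 2, 3 and 4 or N replicate 1 (highest adjusted p = 0.0719). In BTPRZ-T its log2 fold change was 0.89 ± 0.36 (adjusted p = 0.134).

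Itgav, the shared alpha partner, stood at 60.8, 89.3, 138 and 46.7 CPM in BTPRZ-T, 127, 191, 187 and 164 CPM in BT-T and 78.8, 19.7, 89.98 and 95.8 CPM in N. The BT-T libraries lay above the N libraries without overlap, yet the log2 fold change of 1.23 ± 0.45 did not pass the test (edgeR adjusted p = 0.114), but passed with the length trend removed (0.0143) and by DESeq2 (0.0401). Itgb6, the epithelial partner of Itgav, stood at 32.7 to 53.9 CPM in BTPRZ-T, 36.5 to 63.8 CPM in BT-T, against 20.4 to 55.1 CPM in N, with the groups overlapping. Its log2 fold change was 0.16 ± 0.30 in BTPRZ-T and 0.51 ± 0.30 in BT-T. Per kb, the ratio of Itgb8 to Itgb6 was 0.109 to 0.497 in BTPRZ-T, 0.176 to 0.350 in BT-T and 0.00630 to 0.0215 in N, so that Itgb8 was the rarer of the 2 in every library. Itgb3 (20.3 to 26.9, 53.1 to 81.0 and 8.12 to 52.2 CPM in BTPRZ-T, BT-T and N) and the fibronectin receptor subunit Itga5 (42.7 to 186, 185 to 261 and 74.8 to 173 CPM) were not called against N. Without N replicate 2, Itgb3 was called lower in BTPRZ-T (log2 fold change -0.77, edgeR adjusted p = 0.0158). With the length trend removed, Itgb3 was at -0.08 in BTPRZ-T (edgeR adjusted p = 0.871). Itga2b, the platelet subunit, stayed at or below 1.36 CPM in all libraries.

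Among 6 genes of latent TGF-beta and its carriers, 1 rose in BTPRZ-T and 4 rose in BT-T. Tgfb1, the ligand itself, rose by 2.53 ± 0.39 in BTPRZ-T and 2.86 ± 0.40 in BT-T on the log2 scale (edgeR adjusted p = 0.00182 and 0.00124). In BT-T the ligand Tgfb3 (1.97 ± 0.52), the latency protein Ltbp1 (1.74 ± 0.28) and Lrrc32, which tethers latent TGF-beta to cells (1.95 ± 0.50), rose too. Ltbp1 was the 1 gene of this list called between the tumour groups, lower in BTPRZ-T by 1.46 ± 0.28 (adjusted p = 0.0423).

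**Figure D2:**
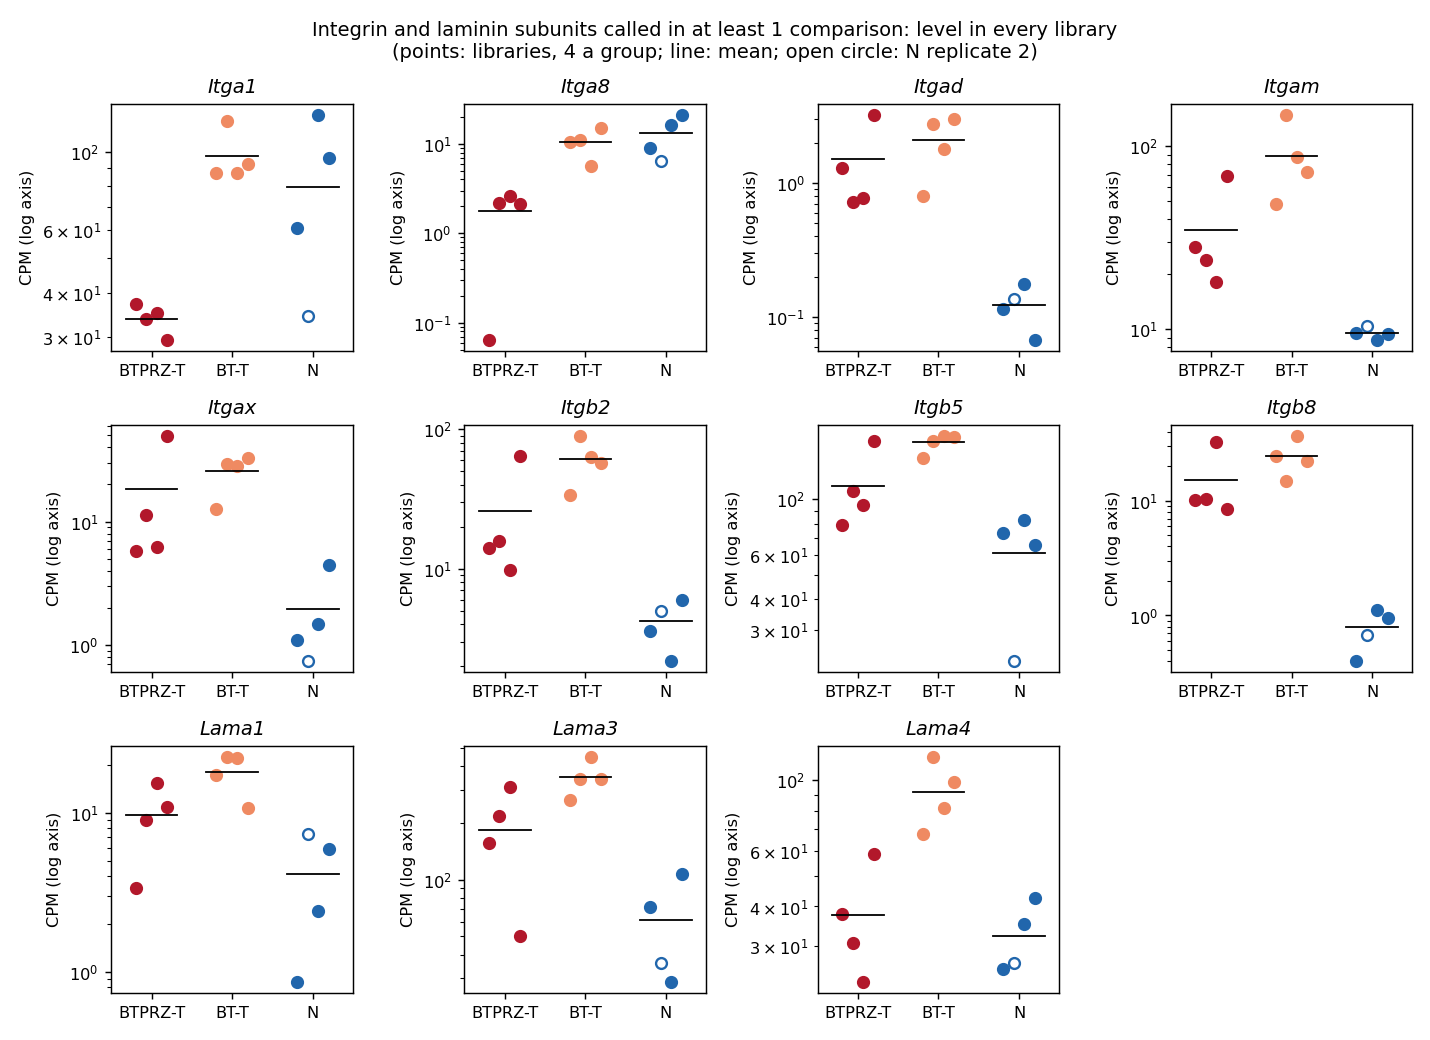
CPM on a log axis in each of the 12 libraries (points, with the group mean as a line) for 11 of the members called in at least 1 comparison. Tumour libraries lie above all N libraries for Itgad, Itgam, Itgax, Itgb2 and Itgb8, and Itga8 is below both other groups in every BTPRZ-T library.

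In BT-T, leukocyte integrins gave the next largest rises. Itgb2 pairs with Itgam, Itgax, Itgad or Itgal in the receptors by which myeloid cells and lymphocytes bind complement fragments and ICAM proteins. Of 7 leukocyte subunits (these 5, Itgae and Itgb7), 4 rose in BTPRZ-T and the same number in BT-T, in each case Itgad, Itgam, Itgax and Itgb2. Itgb2 stood at 14.2, 15.7, 9.75 and 64.9 CPM in BTPRZ-T, 34.1, 89.9, 63.4 and 57.5 CPM in BT-T and 3.57, 5.01, 2.19 and 6.01 CPM in N. Both tumour groups lay above N without overlap, and BTPRZ-T replicate 4 stood far above the other 3 BTPRZ-T libraries. Itgb2 rose by 2.64 ± 0.59 in BTPRZ-T on the log2 scale (edgeR adjusted p = 0.0132) and by 3.87 ± 0.62 in BT-T (adjusted p = 0.00280).

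Itgam, the CD11b chain of macrophages and neutrophils, stood at 28.0, 24.0, 18.1 and 69.1 CPM in BTPRZ-T, 48.4, 148, 86.9 and 71.8 CPM in BT-T and 9.56, 10.4, 8.74 and 9.38 CPM in N. Itgax, the CD11c chain of dendritic cells and some macrophages, stood at 5.81, 11.4, 6.28 and 49.6 CPM in BTPRZ-T, 12.5, 29.5, 28.3 and 33.03 CPM in BT-T and 1.09, 0.745, 1.48 and 4.45 CPM in N. For both genes the tumour libraries lay above N without overlap, and BTPRZ-T replicate 4 was the highest of its group. The log2 fold change of Itgam was 1.87 ± 0.43 in BTPRZ-T and 3.22 ± 0.45 in BT-T (edgeR adjusted p = 0.0151 and 0.00129), and that of Itgax was 3.24 ± 0.78 and 3.73 ± 0.80 (adjusted p = 0.0192 and 0.0126). Itgax in BTPRZ-T lost its call without N replicate 1 or 3 (highest adjusted p = 0.0613). Itgad, the CD11d chain, rose by 3.53 ± 0.80 in BTPRZ-T and 4.00 ± 0.81 in BT-T (adjusted p = 0.0136 and 0.00913) from few reads, 123 in BTPRZ-T, 182 in BT-T and 8 in N. With only the BTPRZ-T and N libraries in the fit, the adjusted p was 0.0772 for Itgad, 0.0764 for Itgax and 0.0577 for Itgb2, and with the replicate number as a term it was 0.0585 for Itgad.

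The other 3 leukocyte subunits were not called. Itgal, the CD11a chain shared by myeloid and lymphoid cells, stood at 0 to 4.24 CPM in BTPRZ-T, 2.02 to 10.2 CPM in BT-T, against 0 to 1.21 CPM in N. A count of 0 allows up to 0.194 CPM in BTPRZ-T replicate 1 and 0.203 CPM in N replicate 2. BT-T lay above N without overlap, and the log2 fold change was 2.97 ± 1.21 (edgeR adjusted p = 0.156, and 0.0395 by DESeq2). Itgae and Itgb7, which pair in the receptor for E-cadherin on intraepithelial lymphocytes, had means of 1.81 and 0.826 CPM in BTPRZ-T, 4.17 and 1.90 CPM in BT-T and 1.77 and 0.845 CPM in N, and neither was called.

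Macrophage and neutrophil markers are given beside these integrins. The 8 macrophage markers summed to 265.4 to 1375.6 CPM in BTPRZ-T, 635.6 to 870.4 CPM in BT-T, against 143.2 to 444.4 CPM in N, with 4 of 8 called higher in BTPRZ-T and 5 of 8 in BT-T. The 6 neutrophil markers summed to 13.2 to 67.6, 20.9 to 73.0 and 1.69 to 20.8 CPM, with 1 of 6 called higher in each tumour group, Csf3r. Within BTPRZ-T, replicate 1 held the highest neutrophil sum (67.6 CPM) and replicate 4 the highest sum of the 4 integrins that rose (186.8 CPM). Replicate 4 of BTPRZ-T had a neutrophil sum of 43.0 CPM. Within BT-T, replicate 2 held the highest neutrophil, macrophage and integrin sums (73.0, 870.4 and 270.5 CPM). BTPRZ-T replicate 4 held the highest macrophage sum of all libraries and N replicate 2 the highest of N in both lists. The sum of Itgad, Itgam, Itgax and Itgb2 was 34.9 to 186.8 CPM in BTPRZ-T, 95.8 to 270.5 CPM in BT-T, against 12.6 to 19.9 CPM in N. In N replicate 2 it was 16.2 CPM, within the range of the other N libraries. Of 7 lymphocyte markers, Cd3d and Ncr1 had no read in any library, which allows up to 0.0129 CPM over all 12, and Cd4, which macrophages can also carry, was the only marker with enough reads to test (not called). The part of leukocyte number in the rise of these integrins was not tested, and more cells of a type cannot be told apart from more RNA per cell in whole tissue.

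**Figure D3:**
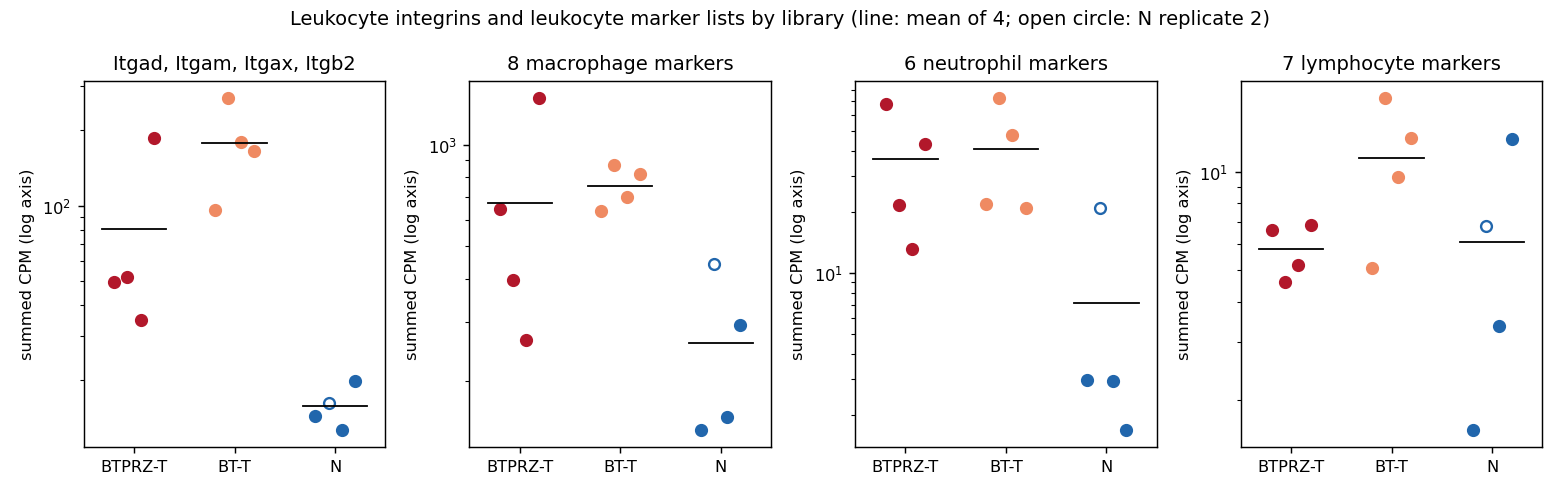
Summed CPM on a log axis of the 4 leukocyte integrins that rose and of the macrophage, neutrophil and lymphocyte marker lists, by library (points) with the group mean (line). The integrin sum is 34.9 to 186.8 CPM in BTPRZ-T, 95.8 to 270.5 in BT-T and 12.6 to 19.9 in N; the macrophage sums of N replicates 2 and 4 and the neutrophil sum of N replicate 2 overlap BTPRZ-T.

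Of these 4 genes, 3 are neighbours on chromosome 7 of GRCm38, Itgam at 128062640 to 128118491, Itgax at 128129547 to 128150657 and Itgad at 128154376 to 128223816, all on the plus strand. The promoters of Itgam and Itgax are shown, since both genes rose in each tumour group, with motif matches in capitals, GAGGAA or its reverse complement TTCCTC, and TGANTCA.
Itgam: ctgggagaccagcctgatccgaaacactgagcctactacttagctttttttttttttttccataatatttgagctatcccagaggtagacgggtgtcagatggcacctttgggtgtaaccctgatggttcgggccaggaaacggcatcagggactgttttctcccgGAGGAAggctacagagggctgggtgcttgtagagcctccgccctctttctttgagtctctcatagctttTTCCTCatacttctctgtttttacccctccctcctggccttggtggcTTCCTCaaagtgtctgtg
Itgax: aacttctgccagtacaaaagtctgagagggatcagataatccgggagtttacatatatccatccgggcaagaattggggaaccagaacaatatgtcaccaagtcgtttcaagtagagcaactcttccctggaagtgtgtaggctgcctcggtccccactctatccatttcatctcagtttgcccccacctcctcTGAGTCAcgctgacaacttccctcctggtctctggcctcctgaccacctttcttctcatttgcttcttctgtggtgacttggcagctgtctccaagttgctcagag
The Itgam window (chr7:128062390-128062689, plus strand) held 3 matches of GAGGAA, beginning at -84 on the plus strand and at -15 and 33 on the minus strand relative to the start. The Itgax window (chr7:128129300-128129599, plus strand) held 1 TGANTCA match, as TGAGTCA at -56. Among all 32851 promoter windows of the same length, 28.28% held GAGGAA and 7.808% held TGANTCA on either strand. Of the 26 windows of the 23 member genes present in RefSeq's table, 14 held GAGGAA and 3 held TGANTCA. The motifs do not overlap each other in letters, and a match is a description of the sequence only.

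Among laminin chains, Lama3, Lama4 and Lama1 rose in BT-T, while none of these passed the test in BTPRZ-T. Lama3, the alpha chain of laminin-332 (chromosome 18), stood at 156, 218, 310 and 50.5 CPM in BTPRZ-T, 264, 344, 450 and 344 CPM in BT-T and 71.9, 36.1, 28.8 and 107 CPM in N. BT-T lay above N without overlap, and BTPRZ-T overlapped N through its replicate 4. Lama3 rose by 2.52 ± 0.53 in BT-T (edgeR adjusted p = 0.0119). In BTPRZ-T its log2 fold change of 1.59 ± 0.52 had an edgeR adjusted p of 0.0672. That p was 0.0226 with the length trend removed, 0.0142 by DESeq2 and 0.0187 by edgeR without BTPRZ-T replicate 4, also passed without N replicate 4, and reached 0.163 at most without 1 of the other libraries. Lamb3, the beta chain of laminin-332, stood at 236, 369, 544 and 124 CPM in BTPRZ-T, 308, 425, 473 and 508 CPM in BT-T and 202, 52.5, 154 and 268 CPM in N. Its log2 fold change was 0.91 ± 0.49 in BTPRZ-T and 1.34 ± 0.50 in BT-T (edgeR adjusted p = 0.278 and 0.122, the second 0.0378 by DESeq2).

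Chain makeup was compared per length. Lama3 made up 36.9 ± 14.5% of alpha chain CPM per kb in BTPRZ-T, 47.8 ± 3.88% in BT-T and 27.6 ± 10.01% in N (SD, n = 4 each). Lama5, the alpha chain of laminin-511, made up 40.4 ± 4.40%, 22.2 ± 3.10% and 35.4 ± 8.27%. The ratio of Lama3 to Lama5 per kb was 0.334 to 1.17 in BTPRZ-T, 1.84 to 2.69 in BT-T and 0.301 to 1.26 in N, so BT-T stood apart from both. These shares are descriptions and were not tested.

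**Figure D4:**
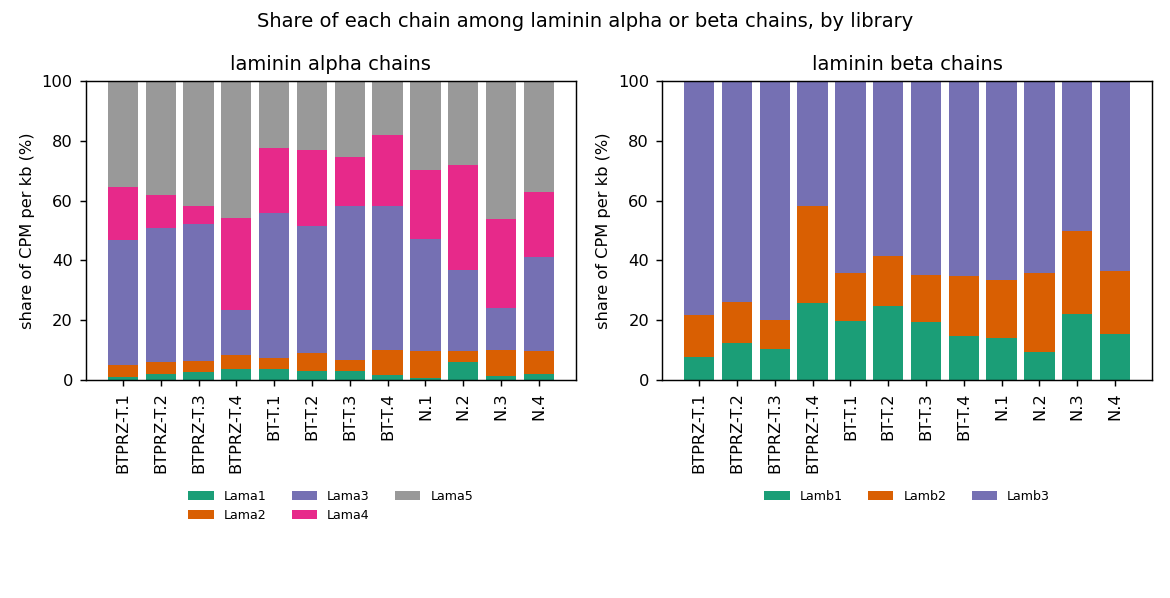
Share (%) of CPM per kb of each laminin alpha chain (left) and beta chain (right) among the chains of its class, as stacked bars for the 12 libraries. Lama3 averages 36.9% of alpha chains in BTPRZ-T, 47.8% in BT-T and 27.6% in N.

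Lama4, a chain of blood vessel walls and muscle, stood at 37.9, 30.6, 23.2 and 58.4 CPM in BTPRZ-T, 67.5, 118, 81.6 and 98.3 CPM in BT-T and 25.4, 26.6, 35.3 and 42.4 CPM in N. The BT-T libraries lay above all others. Lama4 rose by 1.497 ± 0.31 in BT-T (edgeR adjusted p = 0.00991) and lost that call with the length trend removed (adjusted p = 0.0712). Its log2 fold change in BTPRZ-T was 0.21 ± 0.30.

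Lama1, a chain of embryonic basement membrane, stood at 3.36, 8.999, 15.4 and 10.9 CPM in BTPRZ-T, 17.2, 22.5, 22.1 and 10.6 CPM in BT-T and 0.863, 7.31, 2.42 and 5.87 CPM in N. It rose by 2.14 ± 0.61 in BT-T at an adjusted p of 0.0495, and 11 of 18 alternatives ended that call (highest adjusted p = 0.351). The BT-T libraries lay above N without overlap. Lama5 had a log2 fold change of 1.25 ± 0.39 in BTPRZ-T (edgeR adjusted p = 0.0545), with every BTPRZ-T library (144 to 306 CPM) above every N library (40.4 to 137 CPM), and of 1.05 ± 0.38 in BT-T (adjusted p = 0.117). In BTPRZ-T it was called without N replicate 2 (edgeR adjusted p = 0.0376), with the length trend removed (0.00174) and by DESeq2 (0.0129), and in BT-T by DESeq2 (0.0480). Lamb1, Lamb2 and Lamc1, chains of the most widespread laminins, had log2 fold changes of 0.34, 0.11 and 0.44 in BTPRZ-T and 1.54, 0.89 and 1.33 in BT-T, and edgeR called none. In BT-T, Lamc1 was called without N replicate 2 (edgeR adjusted p = 0.0263), with the length trend removed (0.00875) and by DESeq2 (0.0220), and Lamb1 with that trend removed (0.0359) and by DESeq2 (0.0316). Lamc1 was also called in BTPRZ-T with the trend removed (adjusted p = 0.0172). Lama2, the muscle chain, had log2 fold changes of 0.17 in BTPRZ-T and 1.26 in BT-T. With all 12 libraries edgeR did not call it, other than in BT-T with the length trend removed (adjusted p = 0.0290). It was also called in BT-T by DESeq2 (0.0462), and by edgeR when BTPRZ-T replicates 1 and 4 and N replicate 2 were dropped together (0.0449). Lamc3, the rarest gamma chain, had means of 0.617 CPM in BTPRZ-T, 1.99 in BT-T and 3.61 in N. Its log2 fold change in BTPRZ-T was -2.53 ± 1.06 (edgeR adjusted p = 0.149), or -2.95 without N replicate 2 (adjusted p = 0.00491). With the length trend removed it was -1.95 (edgeR adjusted p = 0.201).

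Endothelial and fibroblast markers are given beside these chains. The 8 endothelial markers summed to 302 to 622 CPM in BTPRZ-T, 425 to 809 CPM in BT-T, against 124 to 241 CPM in N, with 2 of 8 called higher in BTPRZ-T and 5 of 8 in BT-T. The 8 fibroblast markers summed to 1827.8 to 8252.8 CPM in BTPRZ-T, 8203.3 to 16369 CPM in BT-T, against 1066 to 1797.9 CPM in N, with 4 and 7 of 8 called higher. Of 15 tested genes of other basement membrane proteins, 3 rose and 1 fell in BTPRZ-T and 7 rose in BT-T. The collagen gene Col18a1 rose by 2.15 ± 0.31 in BTPRZ-T and 2.28 ± 0.31 in BT-T, Col15a1 by 1.80 ± 0.52 and 3.157 ± 0.55, and the laminin-binding nidogen Nid2 by 1.74 ± 0.44 and 2.32 ± 0.45 (edgeR, all adjusted p at or below 0.0418). In BT-T the collagen IV chain Col4a1 rose by 2.15 ± 0.36, and in BTPRZ-T Col4a6 fell by 3.23 ± 0.84. The part of endothelial and fibroblast number in the laminin values was not tested.

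None of the laminin receptor subunits passed the edgeR test against N with all 12 libraries and no length correction. Itga6, the main epithelial alpha chain, stood at 282, 360, 501 and 197 CPM in BTPRZ-T, 325, 413, 419 and 433 CPM in BT-T and 291, 123, 295 and 384 CPM in N. Itgb4, its hemidesmosome partner, stood at 339, 760, 876 and 358 CPM in BTPRZ-T, 506, 697, 858 and 856 CPM in BT-T and 314, 85.7, 285 and 459 CPM in N. Itgb4 in BT-T lay above N without overlap, whereas Itga6 overlapped. The log2 fold change of Itgb4 was 1.03 ± 0.47 in BTPRZ-T and 1.35 ± 0.47 in BT-T (edgeR adjusted p = 0.191 and 0.101), and that of Itga6 was 0.30 ± 0.36 and 0.54 ± 0.36. With the length trend removed, Itgb4 was called higher in both tumour groups (adjusted p = 0.00715 in BTPRZ-T and 0.0206 in BT-T), and DESeq2 called it in BT-T (adjusted p = 0.0242).

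Per kb, the ratio of Itgb4 to Itga6 was 0.834 to 1.46 in BTPRZ-T, 1.08 to 1.42 in BT-T and 0.485 to 0.828 in N. The tumour libraries all lay above the N libraries in that ratio, which was not tested. Itga3, a laminin receptor with Itgb1, had means of 342 ± 110, 336 ± 54.5 and 216 ± 110 CPM in BTPRZ-T, BT-T and N. With all 12 libraries edgeR did not call it (log2 fold changes 0.66 and 0.63), except in BTPRZ-T with the length trend removed (adjusted p = 0.0366). Without the 3 libraries with the fewest genes, edgeR called Itga3 higher in BTPRZ-T (adjusted p = 0.0194). Itgb1, the most abundant member per length in all 3 groups, averaged 583 ± 22.9 CPM in BTPRZ-T, 862 ± 56.9 CPM in BT-T and 590 ± 69.6 CPM in N. BT-T lay above both others without overlap, and the log2 fold change of 0.55 ± 0.21 against N had an edgeR adjusted p of 0.127, or 0.0192 without N replicate 2, and 0.00384 by DESeq2. With the length trend removed, the log2 fold change of Itgb1 in BT-T was 0.24 (edgeR adjusted p = 0.432). Itga7, a laminin receptor of muscle, was at -0.40 ± 0.28 in BTPRZ-T and -0.66 ± 0.28 in BT-T (log2 fold change; not called, but lower in BT-T at an edgeR adjusted p of 0.0417 with the length trend removed). None of 5 tested hemidesmosome genes was called in any comparison by edgeR.

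The 2 members that fell in BTPRZ-T bind collagen and nephronectin. Itga1, a collagen receptor of smooth muscle and stroma, stood at 37.0, 33.7, 35.0 and 29.4 CPM in BTPRZ-T, 87.3, 123, 87.2 and 92.2 CPM in BT-T and 61.1, 34.3, 127 and 96.3 CPM in N. The BTPRZ-T libraries overlapped N through N replicate 2 alone. Itga1 fell by 1.24 ± 0.33 in BTPRZ-T on the log2 scale (edgeR adjusted p = 0.0302, and 0.000827 without N replicate 2), and 9 of the 18 alternatives ended the call. In BT-T it was at 0.29 ± 0.33.

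Itga8, which binds nephronectin and is found on smooth muscle and mesenchymal cells, stood at 0.0645, 2.202, 2.64 and 2.14 CPM in BTPRZ-T, 10.6, 10.96, 5.62 and 14.8 CPM in BT-T and 8.98, 6.36, 16.3 and 21.1 CPM in N. No BTPRZ-T library reached the lowest of either other group. Itga8 fell by 2.89 ± 0.72 in BTPRZ-T (edgeR adjusted p = 0.0219) and was at -0.33 ± 0.67 in BT-T. The call was lost without BTPRZ-T replicate 2, N replicate 3 or N replicate 4 (adjusted p up to 0.0551) and with only the BTPRZ-T and N libraries in the fit (0.0929). Its ligand Npnt rose by 1.87 ± 0.49 in BTPRZ-T and 1.86 ± 0.49 in BT-T.

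Smooth muscle markers are given beside these 2 genes. The 6 markers summed to 430.2 to 4722.1 CPM in BTPRZ-T, 3457.5 to 5652.6 CPM in BT-T, against 6812.8 to 18772 CPM in N, with 3 of 6 called lower in BTPRZ-T and none in BT-T. The part of muscle content in the values of Itga1 and Itga8 was not tested. Among the other collagen receptors, Itga2 had log2 fold changes of 0.39 in BTPRZ-T and 0.76 in BT-T, Itga11 of 1.05 and 1.54, and Itga10 of -0.47 and 1.61. With all 12 libraries edgeR called none of them, except Itga2 in BTPRZ-T with the length trend removed (adjusted p = 0.0392). Without the 3 libraries with the fewest genes, edgeR called Itga11 and Itga10 higher in BT-T (adjusted p = 0.0112 and 0.0054). Itga4 and Itga9, receptors of VCAM1, fibronectin and tenascin, were at -1.40 ± 0.52 and -1.35 ± 0.61 in BTPRZ-T (edgeR adjusted p = 0.104 and 0.187, the first 0.0326 by DESeq2). Without N replicate 2, where they stood at 3.25 and 6.77 CPM, their adjusted p values in BTPRZ-T were 0.00152 and 0.00224. With the length trend removed, they were at -0.75 and -0.70 in BTPRZ-T and not called (edgeR adjusted p = 0.109 and 0.357).

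Ligands and intracellular partners of integrins were counted from lists. Of 15 tested matrix and cell surface ligands, 4 rose in BTPRZ-T and 8 in BT-T. Spp1 (osteopontin, a ligand of Itgav pairs) rose by 5.58 ± 1.18 in BTPRZ-T and 6.15 ± 1.21 in BT-T, and Icam1, a ligand of beta 2 integrins, by 1.57 ± 0.39 and 1.68 ± 0.39. Fibrillin Fbn1 (2.81 ± 0.55), thrombospondin Thbs1 (2.24 ± 0.47) and tenascin Tnc (2.24 ± 0.47) rose in BT-T. Of 30 genes of the intracellular adhesion complex, 1 rose and 2 fell in BTPRZ-T and 1 rose in BT-T. The gene that rose in each was Parvg, the parvin of blood cells (3.35 ± 0.68 in BTPRZ-T and 3.92 ± 0.69 in BT-T). Tns1 and Flna, the tensin and filamin that couple integrins to actin, fell by 2.39 ± 0.54 and 1.37 ± 0.41 in BTPRZ-T.

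The last comparison asked what the loss of Rnf43, Znrf3 and p16 Ink4a added to the Braf and Tgfbr2 edits. No member was called by edgeR in BTPRZ-T against BT-T, where 0.754% of all genes were (0.155% higher and 0.599% lower). At unadjusted p under 0.05 there were 13 members, all lower in BTPRZ-T, which is 35.1% of members beside 17.3% of all genes. DESeq2 called 7 members (18.9%, beside 1217 genes or 8.49% of all genes). Voom with quality weights called 27 members (73.0%, beside 7732 genes or 52.0% of all genes). Without the 3 libraries that held the fewest genes edgeR called 17 members (45.9%, beside 24.5% of all genes). All of these members were lower in BTPRZ-T. With the length trend removed, edgeR called no member (0%, beside 2.05% of all genes). The log2 fold change was below 0 in 34 of 37 members, or 27 of 37 with the length trend removed, with a median of -0.90 against -0.03 over all genes, or -0.27 against 0.26 with that trend removed. In 12 members every BTPRZ-T library lay below every BT-T library (32.4%, beside 12.7% of all genes), and in none the reverse (11.5% of all genes).

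The members nearest to the threshold were lower in BTPRZ-T. Itga1 (-1.53 ± 0.33, edgeR adjusted p = 0.0626) and Lama4 (-1.29 ± 0.30, adjusted p = 0.0751) had the lowest adjusted p, followed by Itga8 (-2.56 ± 0.71, adjusted p = 0.105) and Itgb3, a partner of Itgav (-1.44 ± 0.41, adjusted p = 0.114). With the length trend removed, Itga1 was at -0.61 (edgeR adjusted p = 0.180), Lama4 at -0.61 (0.295), Itga8 at -2.05 (0.0854) and Itgb3 at -0.87 (0.0809). Without BTPRZ-T replicate 4, Lama4, Itgam and Itgb2 were called lower in BTPRZ-T. Of the members that build epithelial adhesion, Itga3 was at 0.03 ± 0.41, Itga6 at -0.25 ± 0.36, Lama5 at 0.20 ± 0.38, Itgb4 at -0.32 ± 0.46, Lamb3 at -0.43 ± 0.49, Itgb1 at -0.56 ± 0.21 and Lama3 at -0.93 ± 0.51. Every BTPRZ-T library lay below every BT-T library in Itgb1 (edgeR adjusted p = 0.192, and 0.00253 by DESeq2). With the length trend removed, Itgb1 was at -0.23 in this comparison (edgeR adjusted p = 0.494). Fibroblast marker sums were 1827.8 to 8252.8 CPM in BTPRZ-T and 8203.3 to 16369 CPM in BT-T, and the part of stroma content in the lower values was not tested.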

How the data were processed

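Poly(A) RNA of 12 mouse colon libraries was sequenced with a stranded kit as single reads, per the labels' protocols. Reads were aligned to mm10 with STAR 2.4.2a, and bcl2fastq 2.20, edgeR 3.16.5, limma and HTSeq are also listed, per the submitters' processing notes. No annotation was named for these counts in the labels or headers. The deposited files hold the authors' raw read counts per gene, not normalized, with an unstranded and 2 stranded columns. The stranded column with more gene reads was used, and reads placed at several loci are not counted, so near-identical copies are represented by unique reads alone.

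Counts were filtered with filterByExpr by group and scaled by TMM. A quasi-likelihood model (edgeR 4.0.16, R 4.3.3, robust) with 1 mean per group was fitted to all 12 libraries, and p-values, two-sided, were adjusted by Benjamini-Hochberg over 14860 genes at a threshold of 0.05. All adjusted p-values are from edgeR unless another tool is named. Each tumour group was compared with N, and BTPRZ-T with BT-T. SE of a log2 fold change is its size over the root of F. CPM per kb divides by the longest transcript in GENCODE M21 (GRCm38), which also gave positions; promoters are from RefSeq on GRCm38.p6. Counts of 0 are given a limit of 3 reads, which covers counting error only.

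Members were chosen by symbol, and members, marker lists and partner lists were chosen with earlier results of these data known. Values in every library are given for most members called in at least 1 comparison and for some partners in the same dimer or trimer. Other members are given by range, mean, reads or log2 fold change. Partner lists are given as counts, with some of their called genes named. Alternatives were RLE factors, no filter, 2 CPM in 4 libraries, DESeq2 1.42.0, voom with quality weights (limma 3.58.1), counts without strand, a fit of only the 2 compared groups, a replicate block, removal of the length trend (14208 genes with a length), and each library left out. Leaving out the 3 libraries with the fewest genes together was added after the data were examined. Counts over members and over marker lists cover every gene of the list, although 1 member and 1 lymphocyte marker are not reported here by name or value. The pipeline was tested on simulated counts.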

Additional observations from a re-analysis of the deposited data

Results flagged for a closer look

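In 7 of the 111 sets of 4 libraries (37 members in 3 groups), 1 library stood far from the rest of its group by Dixon's criterion (gap over range, 0.852 to 0.927 in these sets, above the 95% critical value); chance alone flags about 1 in 20 such sets. Of these, 3 are leukocyte integrins in BTPRZ-T replicate 4, namely Itgax at 49.6 CPM against 5.81 to 11.4 in the other BTPRZ-T libraries, Itgb2 at 64.9 CPM against 9.75 to 15.7, and Itgb7 at 2.53 CPM against 0.0645 to 0.431. The same library held the highest macrophage marker sum of all 12, 1375.6 CPM, and the fewest genes with a read, 13450. Another 2 are in BTPRZ-T replicate 3, with Itgb8 at 32.4 CPM against 8.55 to 10.3 and Itga4 at 9.53 CPM against 6.03 to 6.52. In BT-T, Itga1 stood at 123 CPM in replicate 2 against 87.2 to 92.2, and Itga2 at 62.2 CPM in replicate 1 against 113 to 121. Itgb2 and Itgb8 kept their calls against N in BTPRZ-T when any 1 library was left out (edgeR, highest adjusted p = 0.0454 and 0.00364).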

How the results depend on the processing

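For 18 called member results, 322 values were computed under alternatives. All kept their direction, 287 stayed called and 35 did not, and 10 results stayed called under every alternative run, among them Itgad, Itgam, Itgax, Itgb2, Itgb8 and Lama3 in BT-T, and Itgam and Itgb8 in BTPRZ-T, against N. In BTPRZ-T against N, the 8 members called became 21 with voom (56.8% of members, beside 55.2% of all genes). They became 3 with the 2 groups alone (8.33%, beside 4.59%) and 13 with the length trend removed (35.1%, beside 16.2%). Without BTPRZ-T replicates 1 and 4 and N replicate 2 they became 18 (48.6%, beside 34.9%). In BT-T against N, the 10 called became 19 with DESeq2 (51.4%, beside 16.7% of all genes) and 31 with voom (83.8%, beside 41.4%). Without these libraries they became 22 (59.5%, beside 28.7%). In BTPRZ-T against BT-T, the 0 called became 7 with DESeq2 (18.9%, beside 8.49% of all genes) and 27 with voom (73.0%, beside 52.0%). They became 7 with the 2 groups alone (18.9%, beside 10.8%) and 17 without these libraries (45.9%, beside 24.5%). With the length trend removed the number called stayed at 0 (0%, beside 2.05%). Over all genes, 1760 called in BTPRZ-T against N became 3048 with DESeq2, 8207 with voom, 647 with the 2 groups alone and 5311 without these libraries. The 1274 of BT-T against N became 2394 with DESeq2, 6155 with voom, 2131 with the length trend removed and 4359 without these libraries. The 112 of BTPRZ-T against BT-T became 1217, 7732, 291 and 3723 in the same order, and 1568 with the 2 groups alone. Leaving out each library in turn gave 5 to 13 members and 1076 to 4855 genes in BTPRZ-T against N, 8 to 12 and 624 to 2030 in BT-T against N, and 0 to 3 and 0 to 400 in BTPRZ-T against BT-T. The highest counts against N came without N replicate 2. The cause of these changes was not tested.

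The labels do not say whether replicate numbers pair the samples. Deviations from the group means correlated at -0.297 to 0.315 between same-numbered libraries. Differently numbered libraries were not compared, so these values cannot decide whether the numbers pair samples. With the replicate block, members called were 6, 10 and 0, and genes called were 1160, 945 and 1 in BTPRZ-T against N, in BT-T against N, and between BTPRZ-T and BT-T. As shares, that is 16.2%, 27.0% and 0% of members beside 7.81%, 6.36% and 0.00673% of all genes. Depth limits the rare members most, with 8 reads of Itgad and 46 of Itgal in N.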

Other observations

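Some lists stood outside the comparisons above. Of 8 AP-1 and RAS output transcription factors, 1 was called against N, Junb in BTPRZ-T (log2 fold change 0.82 ± 0.25, edgeR adjusted p = 0.0477), and none in BT-T. Of the 2 platelet markers with enough reads, the chemokine Ppbp rose by 4.22 ± 0.82 in BTPRZ-T and 5.88 ± 0.86 in BT-T (adjusted p = 0.00607 and 0.00159), while the platelet integrin Itga2b was not called. Of 4 glia markers, Sox10 fell in BTPRZ-T by 4.13 ± 1.16 (adjusted p = 0.0367) and none was called in BT-T. Of 8 epithelium markers, the keratin Krt18 rose in BTPRZ-T (1.40 ± 0.25) and Krt20 fell in BT-T by 2.21 ± 0.62.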
